A study of Mus musculus with 12 samples.

Results

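The 9 genes described here encode exporters of the ATP-binding cassette (ABC) family that carry drugs, conjugates and lipids out of cells: Abcc1, Abcc2, Abcc3, Abcc4, Abcc5, Abcb1a, Abcb1b, Abcb4 and Abcg2. They were chosen by symbol as the family's drug and conjugate exporters, and all 9 were found by Ensembl identifier in both deposited tables, among 27742 genes for AML12 and 29092 for iWAT. RNA sequencing had been run on 12 libraries of 2 mouse cell lines, in a series on diethyl phthalate (DEP), a small phthalate found in plastics and cosmetics, and metabolic disease. AML12 is a hepatocyte line, from a mouse carrying a human TGF alpha transgene, and was kept in DMEM/F12. The iWAT cells are described as a white adipocyte line and were kept in DMEM. For both lines there were 3 libraries of cells exposed to 50 µM DEP for 48 h, starting at confluence, and 3 of controls titled DMSO. Strain, age and passage are not given in the sources used here.

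ABC exporters bind and hydrolyse ATP to drive substrates across the plasma membrane or into bile. In hepatocytes they take over after conjugation: glucuronides, sulfates and glutathione conjugates made inside the cell are too polar to diffuse out, and exporters on the canalicular face send them into bile while exporters on the basolateral face return them to blood. Diethyl phthalate is itself cleaved in the body to a monoester, part of which is excreted as a glucuronide. Transcript levels below are in FPKM (reads scaled to exon length and to the library's total), which can be compared between genes and carry no information on protein or transport.

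The markers of each line were looked at before the exporters. Of 12 hepatocyte markers, 7 stood at 0.5 FPKM or more in AML12 DMSO, among them Alb (serum albumin) at 25.9 and Hnf4a (a liver transcription factor) at 88.5 FPKM, while Cps1, a urea cycle gene, was at 0.417 FPKM. Of 7 cholangiocyte markers, 5 reached that level in AML12, with Krt19, a bile duct keratin, at 1008 FPKM. In iWAT DMSO, 4 of 8 adipocyte markers reached it, among them Pparg at 9.84 and Lpl at 8.46 FPKM. Adipoq (adiponectin) was at 0.0184 FPKM and Plin1 (perilipin) at 0.00285 FPKM. Of 8 preadipocyte and fibroblast markers 6 reached it there, among them the mesenchymal receptor gene Pdgfrb at 22.7 FPKM. Dpp4 and Cd34 of that list were at 0.00422 and 0.0219 FPKM. Marker levels moved with DEP in both lines. In AML12 the summed hepatocyte markers were 520 to 530 FPKM in DMSO and 585 to 598 FPKM in DEP, mostly Trf (transferrin). Apoa1, an apolipoprotein gene of the same list, fell from 3.26 to 2.21 FPKM. Cholangiocyte markers there summed to 1701 to 1718 FPKM in DMSO and 1892 to 1896 FPKM in DEP. Of that list Spp1 (osteopontin) rose from 568 to 743 FPKM and Krt7 from 108 to 125 FPKM. Krt19 stood at 1008 and 1002 FPKM, and Sox9 fell from 12.5 to 9.88 FPKM. Macrophage markers in AML12 summed to 327 to 331 FPKM in DMSO and 301 to 308 FPKM in DEP. Most of that was Cd14, which went from 318 to 300 FPKM. Cd68, a lysosomal protein gene, went from 11.1 to 4.34 FPKM. In iWAT the cholangiocyte list, nearly all Spp1, summed to 600.3 to 608 FPKM in DMSO and 493 to 502 FPKM in DEP. Adipocyte markers there summed to 19.9 to 21.2 and 16.7 to 17.9 FPKM, and preadipocyte and fibroblast markers to 189 to 194 and 140.4 to 143 FPKM. The part of these shifts in the results below was not tested. Library totals were not given and were estimated from the deposited values. By these estimates AML12 libraries held between 42845105 and 46232482 reads without DEP and between 49249612 and 52915505 with it. For iWAT the ranges were 50035049 to 54585090 without and 47735539 to 49059544 with DEP. Depth therefore moved with treatment, upward in AML12 and downward in iWAT, and the members' read counts are given below where this bears on them.

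In AML12 cells the transcripts of 4 exporters fell with DEP, and all 4 belong to the ABCC (multidrug resistance-associated protein) branch: Abcc2 fell most, followed by Abcc4, and then by Abcc3 and Abcc1, whose log2 fold changes of -0.30 and -0.29 are closer than their standard errors. Abcb1b, which encodes a P-glycoprotein, rose by 0.24 on the log2(FPKM + 1) scale. Abcc5, Abcb1a and Abcg2 did not pass the test, and Abcb4 was near 0. In iWAT cells Abcb1b passed the test, again upward, and no member passed downward. Calls rest on limma with log2(FPKM + 1) and a Benjamini-Hochberg adjusted p under 0.05 over every gene tested in that line. Testing required 0.5 FPKM or more in 3 or more libraries. By this rule 39.2% of the 12929 tested AML12 genes were called, 15.3% down and 23.9% up, and 4 of the 8 tested members were called down and 1 up. In iWAT 8.54% of 13482 tested genes were called, 4.03% up and 4.52% down, and of 5 tested members 1 was called up and 0 down. At an unadjusted p under 0.05, 1 tested iWAT member, Abcg2, was lower, and voom on reads recovered from the FPKM values called 0 members down there. In bulk RNA, fewer cells with a transcript and less of it per cell cannot be told apart.

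**Figure D1:**
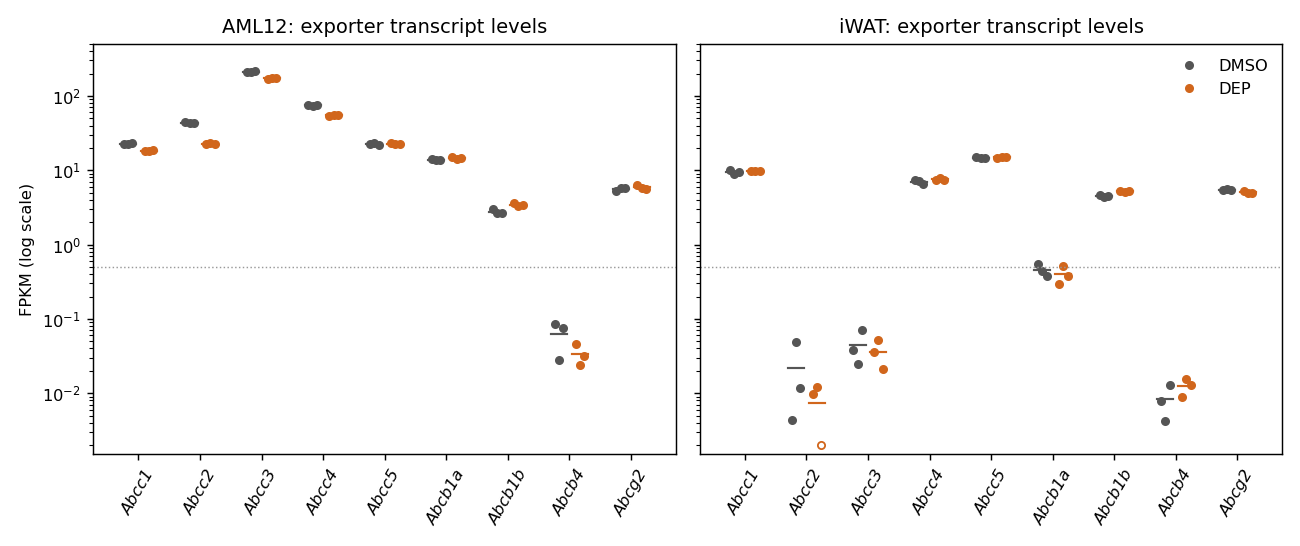
FPKM of each exporter gene (log scale) in every library of AML12 (left) and iWAT (right), DMSO in grey and DEP in orange, with a short line at the mean of 3 libraries. The dotted line marks 0.5 FPKM, and the open circle is a library with 0 reads, drawn at the bottom of the axis. Abcc1 to Abcc4 lie lower with DEP in AML12, and Abcc2, Abcc3 and Abcb4 lie far below the dotted line in iWAT.

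The canalicular exporter Abcc2 (ENSMUSG00000025194, chromosome 19) moves bilirubin glucuronides, glutathione and many drug conjugates into bile. In AML12 DMSO its 3 libraries stood at 44.3, 42.8 and 43.7 FPKM, and with DEP at 22.4, 23.3 and 22.8 FPKM. Every DEP library lay below every DMSO library, and the DEP group held fewer reads in spite of its greater depth, 29681 over 3 libraries against 50093. The mean fell by 47.6%, with a log2 fold change of -0.90 ± 0.02 (SE, adjusted p = 5.90e-06 by limma), at rank 44 from the bottom of 12929 tested genes. In iWAT the gene was all but silent. There its reads numbered 2, 21 and 5 in DMSO and 4, 5 and 0 in DEP, where a library with 0 reads allows up to 0.00717 FPKM (3 reads, counting error only).

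The genome before the Abcc2 start is shown because this member had the largest change. The run below ends where GENCODE M21 places the first exon (GRCm38.p6, RefSeq window, chr19:43782058-43782191, plus strand), and capitals mark a CCAAT box on the minus strand, the farther of 2 in the RefSeq window.
Abcc2 upstream: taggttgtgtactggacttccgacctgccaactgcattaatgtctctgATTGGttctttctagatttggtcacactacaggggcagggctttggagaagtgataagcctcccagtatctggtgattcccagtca
A shorter stretch, chr19:43782200-43782228 of the same strand, lies in that exon but before the RefSeq start. Capitals there mark a match to TGACNNNGC, the core of the antioxidant response element to which the oxidant-responsive factor NRF2 binds. It begins 98 bases before the RefSeq start.
Abcc2 antioxidant element match: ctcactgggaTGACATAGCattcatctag
Of 32851 RefSeq windows of 250 bases before a start, 10.2% hold a TGACNNNGC match on either strand and 33.8% a CCAAT match. A match is a string of letters and not a known site.

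The basolateral exporters Abcc3 and Abcc4 fell as well. Abcc3 (ENSMUSG00000020865, chromosome 11), which returns glucuronides and bile acids to blood, was the most abundant member in AML12, at 212, 210.4 and 213 FPKM in DMSO and 169, 175 and 172 FPKM in DEP. The groups did not overlap, and the log2 fold change was -0.30 ± 0.02 (adjusted p = 9.47e-05 by limma). Because the gene was so abundant, its mean fell by 40.2 FPKM, more than that of any other member, while Abcc2 fell by 20.8 FPKM. Abcc4 (ENSMUSG00000032849, chromosome 14), an exporter of cyclic nucleotides, prostaglandins and, with glutathione, bile acids, stood at 76.0, 74.2 and 74.6 FPKM in DMSO and at 53.7, 55.1 and 56.0 FPKM in DEP. Its mean fell by 26.7%, again without overlap (log2 fold change -0.44 ± 0.02, adjusted p = 3.77e-05 by limma). Its position among tested genes was 326 from the bottom, and that of Abcc3 was 784.

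An Abcc4 window is given beside that of Abcc2, since both fell (GRCm38.p6, chr14:118706220-118706469, minus strand, printed 5′ to 3′ on that strand). RefSeq held 2 windows for Abcc4, and that of the start farthest upstream was used. Capitals mark 3 GC boxes (GGGCGG), 2 dioxin response element cores (GCGTG, the letters bound by the aryl hydrocarbon receptor), and 1 antioxidant element core that begins 25 bases before the start, each searched on both strands.
Abcc4 upstream: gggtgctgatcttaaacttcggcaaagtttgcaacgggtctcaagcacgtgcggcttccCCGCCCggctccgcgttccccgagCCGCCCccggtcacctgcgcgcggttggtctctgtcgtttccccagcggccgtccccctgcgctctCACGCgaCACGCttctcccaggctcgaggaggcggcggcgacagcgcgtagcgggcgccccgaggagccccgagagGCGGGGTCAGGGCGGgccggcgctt
GGGCGG occurs in 32.7% and GCGTG in 28.2% of all windows of this length. The Abcc2 window held 0 matches to either, and TATAAA, found in 12.4% of windows, had 0 matches before Abcc2, Abcc4 and Abcb1b. No 2 motif matches overlapped. The RefSeq table held a window for 7 of the 9 members, and Abcc1 and Abcc3 were not among them.

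Abcc1 (ENSMUSG00000023088, chromosome 16), a broadly expressed exporter of glutathione conjugates such as leukotriene C4, stood at 22.8, 22.5 and 23.0 FPKM in AML12 DMSO and at 18.1, 18.4 and 18.6 FPKM in DEP. The groups did not overlap and the log2 fold change was -0.29 ± 0.02 (adjusted p = 0.000157 by limma). In iWAT the same gene stood at 9.93, 8.90 and 9.50 FPKM in DMSO and at 9.63, 9.79 and 9.69 FPKM in DEP, with all 3 DEP values inside the DMSO range. Its iWAT log2 fold change was 0.04, with a 95% interval from -0.06 to 0.13.

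Abcc5 (ENSMUSG00000022822, chromosome 16), an exporter of cyclic nucleotides and related anions, was the ABCC member whose groups overlapped in both lines. AML12 values were 22.4, 23.1 and 22.2 FPKM in DMSO and 23.2, 22.9 and 22.4 FPKM in DEP, and the 95% interval of its log2 fold change ran from -0.05 to 0.08. Its AML12 estimate of 0.02 turned to -0.02 when libraries were centred on their medians or scaled to their upper quartiles. In iWAT it was the most abundant member, at 15.2, 14.8 and 14.4 FPKM in DMSO and 14.8, 15.1 and 14.9 FPKM in DEP, with an interval from -0.05 to 0.08. In AML12 controls Abcc1 and Abcc5 overlapped in level, and with DEP Abcc2 came down to the range of Abcc5, so that those neighbours no longer differed beyond their spread.

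P-glycoproteins, which expel hydrophobic drugs, come from the paired genes Abcb1a and Abcb1b in rodents and from a single gene in humans. Abcb1a (ENSMUSG00000040584), Abcb1b (ENSMUSG00000028970) and Abcb4 (ENSMUSG00000042476) follow each other on the plus strand of chromosome 5, with no other protein-coding gene between them in GENCODE M21. The lines used this cluster differently. In AML12 DMSO Abcb1a supplied 83.4% ± 0.877 (SD, n = 3) of the summed FPKM of the pair, and in iWAT DMSO 9.10% ± 1.44 (SD, n = 3). These shares set levels of separate tables side by side and were not tested.

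Abcb1b was the member called upward in both lines. In AML12 it stood at 3.01, 2.64 and 2.64 FPKM in DMSO and at 3.64, 3.29 and 3.41 FPKM in DEP, without overlap (log2 fold change 0.24 ± 0.06, adjusted p = 0.0149 by limma). That call ended without DMSO replicate 2, at an adjusted p = 0.0504 by limma. In iWAT it stood at 4.62, 4.35 and 4.48 FPKM in DMSO and at 5.34, 5.03 and 5.26 FPKM in DEP, also without overlap (0.18 ± 0.04, adjusted p = 0.0375 by limma). The iWAT call was lost without any single library, at adjusted p-values from 0.0645 to 0.113, and at adjusted p = 0.0793 with a replicate block.

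Abcb1a did not pass the test in AML12, where its values were 14.1, 13.7 and 13.8 FPKM in DMSO and 14.95, 14.1 and 14.5 FPKM in DEP. These groups did not overlap either, but the gap was small, with a log2 fold change of 0.06 and a 95% interval from -0.01 to 0.13. Of the tested AML12 genes 52% had groups that did not overlap, and of the 8 tested members 6 did. In iWAT Abcb1a stayed below the level for testing, at 0.545, 0.435 and 0.372 FPKM in DMSO and 0.297, 0.508 and 0.383 FPKM in DEP. The 2 paralogs share sequence: of the 50-base windows of the longest Abcb1b transcript, 18% occur in Abcb1a transcripts, so the split of reads between them is uncertain. Summed, the pair stood at 16.6 ± 0.391 and 17.97 ± 0.597 FPKM in AML12 DMSO and DEP, and at 4.94 ± 0.206 and 5.60 ± 0.0602 FPKM in iWAT (SD, n = 3). Summing them was chosen after seeing the data. The pair's AML12 log2 fold change was 0.11, with an adjusted p = 0.0379 by limma. The pair's iWAT log2 fold change was then 0.15, at an adjusted p = 0.0529 by limma.

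The genome before the Abcb1b start is printed because this gene rose in both lines (GRCm38.p6, chr5:8797897-8798146, plus strand). Capitals mark 2 CCAAT boxes and 1 GC box, and there were 0 matches to TGACNNNGC or GCGTG.
Abcb1b upstream: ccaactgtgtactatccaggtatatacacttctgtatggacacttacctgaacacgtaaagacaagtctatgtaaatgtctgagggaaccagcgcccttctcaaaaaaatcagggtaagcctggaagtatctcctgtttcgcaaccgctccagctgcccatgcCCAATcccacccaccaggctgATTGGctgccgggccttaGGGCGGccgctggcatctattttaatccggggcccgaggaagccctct
Another annotated gene, Gm5106, overlaps this window and an exon of Abcb1b. It stood at 0.0564 FPKM in AML12 DMSO, 0.104 in AML12 DEP, 0.180 in iWAT DMSO and 0.0876 in iWAT DEP. Gm42686 overlaps an exon of Abcb1a, and stood at 0.193 FPKM in AML12 DMSO, 0.239 in AML12 DEP, 0.00644 in iWAT DMSO and 0 in iWAT DEP. The sources used here do not say whether the counting used strand.

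Abcb4, which flips phosphatidylcholine into bile and marks the canalicular membrane of liver, was near 0 in both lines. AML12 libraries held 37, 12 and 30 of its reads in DMSO and 23, 11 and 15 in DEP. In iWAT there were 12 reads over the 3 DMSO libraries and 17 over the 3 DEP libraries. It was tested in neither line.

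Abcg2 (ENSMUSG00000029802, chromosome 6), the breast cancer resistance protein, exports sulfate conjugates and urate. Its levels were alike in both lines, at 5.28, 5.79 and 5.70 FPKM in AML12 DMSO and 5.37, 5.56 and 5.43 FPKM in iWAT DMSO, values from separate tables that were not tested against each other. With DEP it stood at 6.43, 5.85 and 5.61 FPKM in AML12, overlapping the controls, and the 95% interval of the log2 fold change ran from -0.05 to 0.21. In iWAT it stood at 5.19, 4.90 and 4.98 FPKM in DEP, below every control. The iWAT log2 fold change was -0.10 ± 0.04, with an adjusted p = 0.141 by limma. Non-overlapping groups occurred in 31.1% of tested iWAT genes and in 3 of the 5 tested members, the others being Abcb1b and Abcc4.

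Abcc4 in iWAT stood at 7.34, 7.11 and 6.45 FPKM in DMSO and at 7.42, 7.88 and 7.46 FPKM in DEP. Its log2 fold change was 0.11, with a 95% interval from -0.01 to 0.23 and an adjusted p = 0.233 by limma. Abcc3 was near 0 there, with 39 reads over the DMSO and 30 over the DEP libraries.

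**Figure D2:**
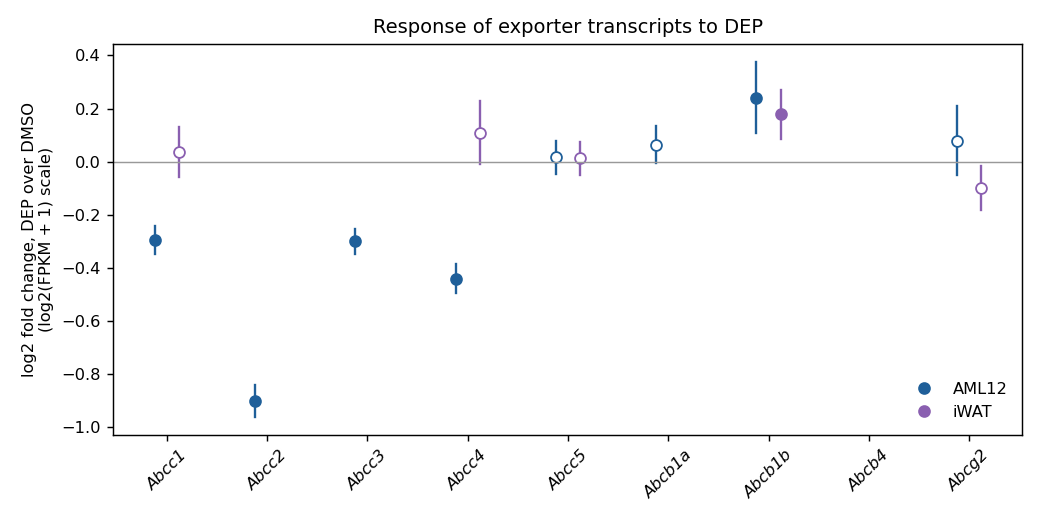
Log2 fold change (DEP over DMSO, log2(FPKM + 1) scale) of the tested exporters in AML12 (blue) and iWAT (purple), with 95% intervals from limma. Filled circles passed an adjusted p of 0.05, and genes without a symbol were not tested in that line. In AML12 Abcc2 lies at -0.90 and Abcc1, Abcc3 and Abcc4 between -0.44 and -0.29, while Abcb1b lies above 0 in both lines.

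Added together, the 9 transcripts came to 398 ± 2.66 FPKM in AML12 DMSO and 315 ± 3.48 FPKM in AML12 DEP (SD, n = 3). Abcc3 made up 53.3% of that sum in DMSO and 54.6% in DEP, so the leading member kept a similar share. The share of Abcc2 went from 11.0% ± 0.112 to 7.25% ± 0.0794, and that of Abcc5 from 5.67% ± 0.157 to 7.25% ± 0.182. In iWAT the sum was 41.7 ± 1.197 FPKM in DMSO and 42.9 ± 0.349 FPKM in DEP, and the range of the DMSO libraries, 40.8 to 43.0 FPKM, overlapped the DEP range of 42.7 to 43.3 FPKM. There Abcc5 made up 35.5% and Abcc1 22.7% of the sum in DMSO. These sums are descriptions of chosen genes and were given no test.

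**Figure D3:**
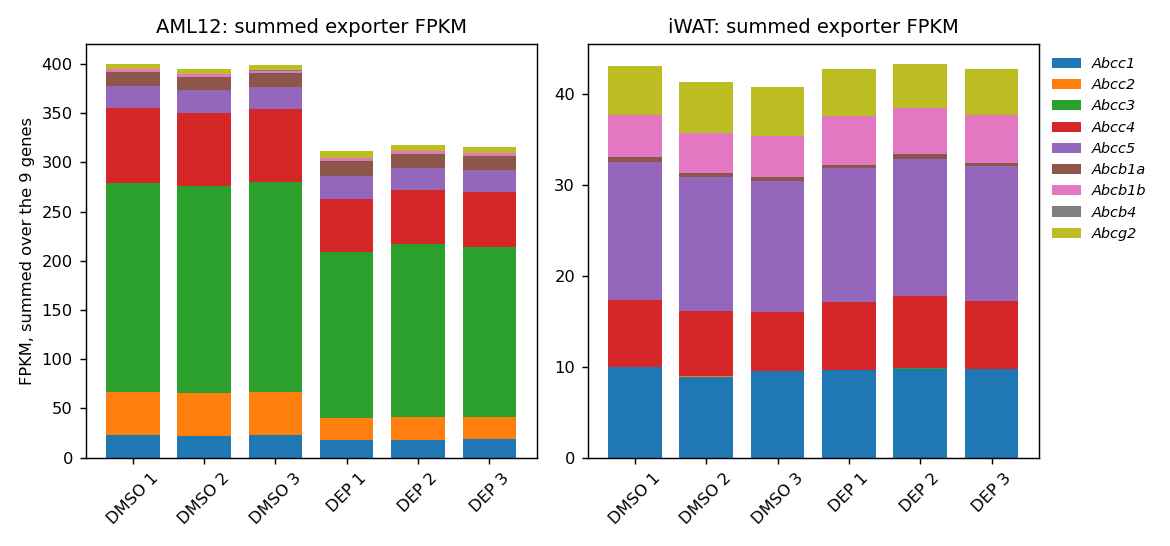
FPKM summed over the 9 exporter genes in each library, stacked by gene, for AML12 (left) and iWAT (right), each on its own axis from 0. AML12 sums are 395 to 400.3 in DMSO and 311 to 318 in DEP, mostly Abcc3, and iWAT sums are 40.8 to 43.3 with Abcc5 and Abcc1 the largest parts.

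Whether DEP acted differently in AML12 and iWAT was tested with an interaction term in a fit of all 12 libraries, which called 29.2% of 14651 genes, with 11.7% lower and 17.6% higher in AML12 than in iWAT. Of 8 tested members 4 were called lower and 0 higher. At an unadjusted p under 0.05 Abcg2 was higher (0.18 ± 0.06, adjusted p = 0.0610 by limma), and voom on recovered reads called it, at an adjusted p = 0.0293. Subtracting the iWAT from the AML12 log2 fold change gave -0.33 ± 0.04 for Abcc1 (adjusted p = 0.000302) and -0.55 ± 0.06 for Abcc4 (adjusted p = 4.22e-05), by limma; both genes are expressed in each line. For Abcc2 and Abcc3 it was -0.88 and -0.29, also called, but iWAT levels near 0 hardly move on a log2(FPKM + 1) scale. On the ratio scale of voom those differences were 0.48 for Abcc2 (adjusted p = 0.769) and -0.08 for Abcc3 (adjusted p = 0.943), so a difference between the lines was not detectable for this pair at its iWAT depth. For Abcb1b the difference was 0.06, with a 95% interval from -0.08 to 0.21.

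The rest of the ABC family, 42 listed genes, showed no common direction in AML12. Of 16 tested, 4 rose and 4 fell, where 23.9% of all tested genes rose and 15.3% fell. Their median log2 fold change was 0.01 against 0.03 over all tested genes. When libraries were centred on their medians it turned to -0.03, with 3 up and 5 down. Of all 12929 tested genes 2357 were then up and 2545 down. The nearest relative to fall was Abcc10, a broad-specificity ABCC exporter, from 5.10 ± 0.0774 to 3.61 ± 0.215 FPKM (-0.40 ± 0.04, adjusted p = 0.000708 by limma). Abca3, a lipid transporter best known from lamellar bodies of lung, fell from 17.3 to 14.8 FPKM. Abcf2 and Abce1, which carry ABC domains but no membrane domains and act on ribosomes, rose from 43.8 to 51.9 and from 50.9 to 57.5 FPKM. In iWAT 1 of 18 tested fell, the peroxisomal Abcd3, from 16.8 to 14.97 FPKM, and 0 rose. Of all tested iWAT genes 4.52% fell and 4.03% rose.

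Uptake carriers for organic ions and bile acids went both ways in AML12, with 2 of 6 tested up and 2 down. Among all tested AML12 genes 23.9% were up and 15.3% down. Slco4a1, a carrier of organic anions including thyroid hormone, rose from 4.46 to 7.77 FPKM, and the prostaglandin carrier Slco2a1 fell from 34.5 to 29.8 FPKM. In iWAT 0 of 4 tested were called, 0 had an unadjusted p under 0.05 and voom called 0.

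Genes of glutathione synthesis and conjugate breakdown fell in 6 of 9 tested cases in AML12 and rose in 0 (median -0.20), where 15.3% of all tested genes fell. With libraries centred on their medians 8 fell and 0 rose (median -0.24), where 2545 of all 12929 tested genes fell. Gclc, the catalytic subunit of glutamate-cysteine ligase, fell from 202.4 ± 0.478 to 138 ± 1.78 FPKM, and Gsr, glutathione reductase, from 174 ± 1.32 to 132 ± 0.415 FPKM. The breakdown genes Anpep and Chac1 fell as well, at log2 fold changes of -1.07 and -0.14. In iWAT 1 of 9 rose, Chac1, which breaks glutathione down, from 97.6 to 106 FPKM, and 0 fell. Of all genes tested there 4.03% rose and 4.52% fell.

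Transcription factors known to regulate exporter genes, listed together with the NRF2 inhibitor gene Keap1, changed in both directions in AML12. Of 23 genes tested, Keap1 among them, 4 were up and 6 down (median -0.04). Of all tested genes there 23.9% rose and 15.3% fell. With libraries centred on their medians 3 of these genes were up and 10 down. Centring left 2357 of all 12929 tested genes up and 2545 down. Nfe2l2, which encodes NRF2, had 56.3 and 54.9 FPKM in DMSO and DEP (adjusted p = 0.264 by limma), and its inhibitor Keap1 fell from 10.6 to 9.42 FPKM. Maff, a small MAF partner of NRF2, fell from 30.8 to 26.0 FPKM in AML12 and rose from 25.8 to 30.5 FPKM in iWAT. Nr1i2, which encodes the drug receptor PXR, had 3.33 and 2.90 FPKM in AML12 (adjusted p = 0.0840 by limma), and Ahr, the aryl hydrocarbon receptor gene, 8.01 and 7.66 FPKM (adjusted p = 0.287 by limma). Nfe2l2, Keap1, Nr1i2 and Ahr were named after their values were seen, for their known part in ABCC gene control. Hnf4a rose from 88.5 to 109 FPKM, Trp53, the p53 gene, from 35.3 to 47.3 FPKM, and Ybx1, a cold shock domain factor linked to P-glycoprotein expression, from 317 to 372 FPKM. In iWAT 4 of 19 tested rose and 1 fell, where 4.03% of all tested genes rose and 4.52% fell. Trp53 rose in iWAT as well, from 46.1 to 49.2 FPKM, and so did Maff. Mafk rose there from 19.7 to 23.2 FPKM and Mafg from 40.9 to 45.2 FPKM, while Hif1a, the hypoxia factor gene, fell from 25.9 to 20.97 FPKM.

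Genes that anchor exporters at the membrane or carry them there rose in 8 of 13 tested AML12 cases and fell in 3 (median 0.11). Of all tested AML12 genes 23.9% rose and 15.3% fell. With libraries centred on their medians 6 rose and 3 fell (median 0.07), where 2357 of all 12929 tested genes rose and 2545 fell. Cav1, the caveolae protein, rose from 165 to 234 FPKM, and Msn (moesin), which ties membrane proteins to actin, from 119.8 to 142 FPKM. In iWAT 1 of 13 rose, the fusion protein gene Stx3, from 17.1 to 18.97 FPKM, and 1 fell, the recycling GTPase gene Rab11a, from 18.6 to 16.4 FPKM. Among all tested iWAT genes 4.03% rose and 4.52% fell.

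**Figure D4:**
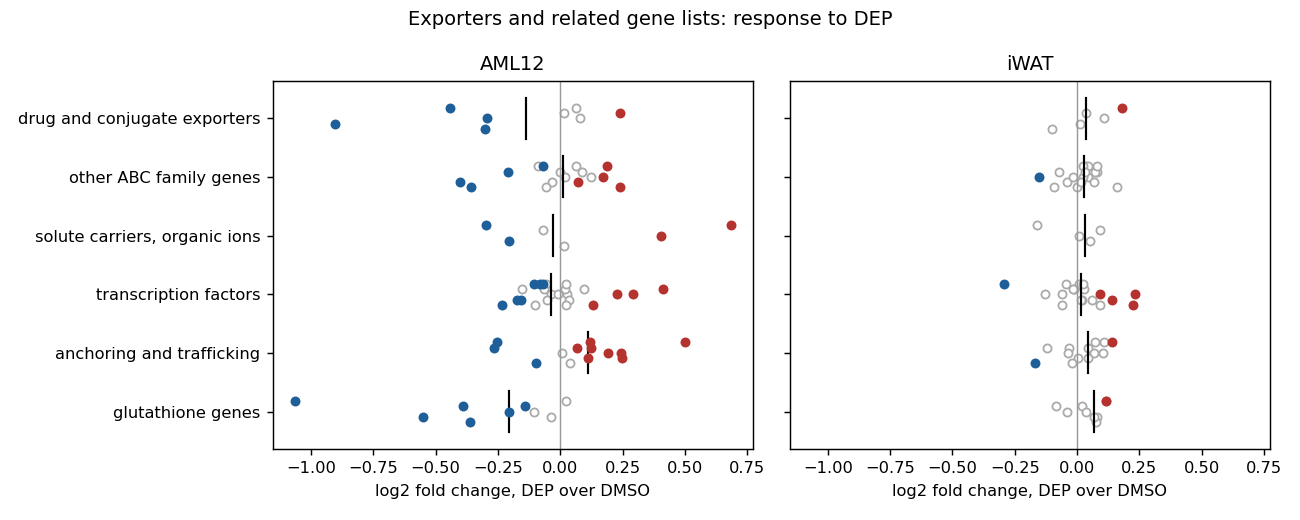
Log2 fold change (DEP over DMSO, log2(FPKM + 1) scale) of every tested gene of 6 lists in AML12 (left) and iWAT (right). Red and blue points passed the test upward and downward, open grey points did not, and black bars are list medians. Of the glutathione genes in AML12 all but Ggt6 (0.02) lie left of 0, with a list median of -0.20. The exporters there have a median of -0.14.

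Genes with profiles most like those of Abcc2 and Abcc4, the members with the largest called changes, were sought among 10024 genes by the root mean square difference of line-centred log2(FPKM + 1) over 12 libraries. Because Abcc2 was near 0 in iWAT, its profile is flat there on this scale, so for it the measure asks of a gene only little movement in the 6 iWAT libraries. Closest to Abcc2 were Entpd5 (0.05), Cox6a2 (0.06) and Tnfaip2 (0.07). Entpd5 encodes an endoplasmic reticulum nucleotidase and went from 11.5 to 6.09 FPKM in AML12 and from 4.34 to 4.25 FPKM in iWAT. Closest to Abcc4 were Sqstm1, Rhbdd1 and Zkscan17, each at 0.04. Sqstm1, the autophagy receptor p62, went from 197 to 143 FPKM in AML12 and from 397 to 425 FPKM in iWAT. The likeness is a description over these libraries.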

How the data were processed

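Per the submitters' processing notes, Trimmomatic and HISAT2 were used with the GRCm39 build; versions, counting tool and annotation are not given in the sources used here. Per the labels' protocols, RNA was taken with a mirVana kit and made into stranded total RNA libraries. The deposited tables, 1 per line with 1 column per library, do not name their unit. The deposited values were taken as FPKM because of how they behave, as follows. Symbols came from GENCODE M21 (GRCm38), which matched 95.1% of AML12 and 94.9% of iWAT identifiers; no coordinates of the files are used, and those printed belong to RefSeq windows on GRCm38.p6. Each FPKM was multiplied by the GENCODE exon length and by a library total. That total was estimated from the same values, as one that made low counts whole, so wholeness is in part fixed by that choice. The products were whole reads, within 0.001 reads (scaled up above 1000 reads), for 89.4% of AML12 and 89.4% of iWAT genes and for all 9 exporters. In genes with few reads, over 60% of the counts were even in each library, so a pair may often be counted as 2 reads.

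DEP was compared with DMSO in limma 3.58.1 (R 4.3.3) with a trend on log2(FPKM + 1), two-sided, over genes with at least 0.5 FPKM in 3 libraries, which understates changes of genes near 1 FPKM. The difference between lines was the interaction in a fit of all 12 libraries. The exporters and lists were chosen with earlier results of these data known. Named in addition were up to 4 called genes per list and line by smallest p where the higher group had 1 FPKM or more. Lists for macrophages and endothelium had 2 of 6 and 0 of 6 genes at 0.5 FPKM in AML12 DMSO and 2 of 6 and 1 of 6 in iWAT DMSO, and the preadipocyte and fibroblast list 1 of 8 and 6 of 8. The scripts were tested on simulated data. Nothing says that replicates were separate cultures, so p-values may measure technical spread alone. Same-numbered DMSO and DEP libraries correlated at -0.0563 to 0.0289 in their deviations from group means, and the labels give no shared batch, so no pairing was used. Alternatives were other pseudocounts, filters and scalings, a replicate block, no trend, a joint fit, voom on recovered reads and leaving out each library. Python 3.11.15, numpy 2.4.6, pandas 2.3.3 and matplotlib 3.10.9 were used.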

Additional observations from a re-analysis of the deposited data

Results flagged for a closer look

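Of 30 named genes 29 could be tested for a difference of the DEP effect between the lines, and 22 passed in limma at an adjusted p below 0.05. Most of these genes were named because they were called in a line, so the number that passed is in part fixed by that choice and is not read against the share of all genes. Values are log2 fold changes, AML12 less iWAT. Among the exporters they were -0.33 for Abcc1, -0.88 for Abcc2, -0.29 for Abcc3 and -0.55 for Abcc4, but Abcc2 and Abcc3 were tested through their AML12 levels alone and were near 0 in iWAT, and by voom on recovered reads their differences did not pass (adjusted p = 0.769 and 0.943).

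Among the other ABC genes the differences were 0.21 for Abcf2, -0.49 for Abcc10, 0.27 for Abce1 and -0.25 for Abca3. For the uptake carriers they were 0.63 for Slco4a1 and -0.21 for Slco2a1. Among the transcription factors they were 0.32 for Hnf4a, 0.32 for Trp53, 0.17 for Ybx1, -0.47 for Maff, 0.23 for Hif1a, -0.13 for Mafk and -0.22 for Mafg. Cav1 and Msn differed by 0.43 and 0.18, and the glutathione genes Gclc, Gsr and Chac1 by -0.63, -0.41 and -0.26. Maff, Mafg and Chac1 were called down in AML12 and up in iWAT. Groups of 3 libraries are too small for a check for single outlying libraries.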

How the results depend on the processing

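Abcc1, Abcc2, Abcc3 and Abcc4 remained called down in AML12 under all 16 alternatives run for each. In iWAT 1152 genes were called, 543 up and 609 down. Without a filter there were 664 (293 up, 371 down), without the trend 673 (277 and 396), with the replicate block 503 (190 and 313) and by voom 1980 (1040 and 940). Members called up in iWAT numbered 0 without a filter and 0 with the block. Since the replicate numbers are not shown to pair the libraries, the block's lower counts are not read as weaker effects. It ended no other member's call. Leaving out single libraries gave 507 to 689 genes in iWAT (193 to 274 up, 314 to 423 down) and 0 members up, 0 to 1 members up in AML12 and 0 to 1 for the difference between lines; the cause was not tested beyond the fewer samples. By voom the difference between lines had 1 member up and 2 down. Without a filter, the iWAT Abcb1b adjusted p was 0.0826. For the difference between lines, Abcc3 also lost its call at a pseudocount of 0.1 (adjusted p = 0.299), and Abcg2 gained one without AML12 DEP replicate 3 (adjusted p = 0.0302).

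Signs turned for Abcc5 and Abcc1, whose values were near 0, and for the difference between lines of Abcc2, which was not: it went from -0.88 to 0.48 by voom, with 0 to 21 reads per iWAT library. AML12 Abcc5 was -0.019 when centred and -0.018 with upper quartile scaling. The difference between lines for Abcc5 was -0.032 and -0.035 under the same scalings and ran from -0.012 to 0.021 over single libraries left out. With Abcb1a and Abcb1b summed, the difference between lines was -0.048 for the pair, against 0.06 for Abcb1b alone. In iWAT, leaving out single libraries moved Abcc1 from -0.00093 to 0.070 and Abcc5 from -0.0050 to 0.029. Centring on medians gave 2357 genes up and 2545 down in AML12, against 3092 and 1982, and for the difference between lines 2032 up and 2220 down, against 2575 and 1708. Members near 0 rest on 0 to 37 reads per library, which limits them.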
